A study of Mus musculus with 6 samples.

Results

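Myeloid C-type lectins and Fc gamma receptors were followed by bulk RNA sequencing in subcutaneous white adipose tissue, a fat depot beneath the skin, of mice. The set holds 10 of the 36144 gene rows of the deposited table: the lectins Clec4a1, Clec4a2, Clec4a3, Clec4n, Clec7a and Clec10a, the receptors Fcgr1, Fcgr2b and Fcgr3, and the adaptor Fcer1g. The genes were chosen by name with their levels in these 6 libraries already known, so every difference between the groups is given for them as a description. The table gives TPM, the share of each transcript in a fixed library total after correction for its length, and all 10 genes were above 1 TPM in every library. The libraries fall into 3 titled WT and 3 titled Tumor, each numbered as biological replicates 1 to 3. The genotype label calls the first set MSRA WT and the second MSRA full-body KO, while the treatment label is an orthotopic transplant for all 6. The design text describes transplanted pancreatic ductal adenocarcinoma cells in hosts of both genotypes, with fat taken 4 to 5 weeks after surgery, whereas the title of the series sets mice with a tumour against mice without. The groups are therefore called by their titles, WT and Tumor. Strain, age and sex of the mice, and whether hosts were pooled, were not given in the sources used here.

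C-type lectin receptors are surface proteins of macrophages, monocytes and dendritic cells that bind sugars on microbes and on the body's own cells. Fc gamma receptors bind the constant part of IgG antibodies, so that cells coated with IgG or immune complexes can be taken up. Both families come in activating forms, which signal through an ITAM (a tyrosine motif that recruits the kinase Syk), and inhibitory forms, which carry an ITIM (a tyrosine motif that recruits phosphatases). The adaptor Fcer1g supplies the ITAM for Fcgr1, Fcgr3 and Clec4n, which have none of their own. In fat these receptors are known mainly from resident and infiltrating macrophages.

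The genes lie in a few clusters (GRCm38, GENCODE M21). Clec4a1 (chromosome 6, 122921848 to 122934619), Clec4a3 (122952515 to 122969875), Clec4a2 (123106428 to 123143999) and Clec4n (123229843 to 123247021) lie on the plus strand within a stretch of 368 kb that also holds Clec4a4, Clec4b1, Clec4b2, Clec4d and Clec4e. Clec7a lies farther along chromosome 6, from 129461591 to 129472779 on the minus strand. Fcgr2b (chromosome 1, 170958617 to 170976547), Fcgr3 (171051174 to 171064935) and Fcer1g (171229572 to 171234365) share 276 kb with Fcgr4, all on the minus strand except Fcgr4. Fcgr1 is on chromosome 3 (96282909 to 96293969, minus strand) and Clec10a on chromosome 11 (70156197 to 70170834, plus strand), next to its close copy Mgl2. Of the 50-base words in the Fcgr3 transcripts 9.58% also occurred in Fcgr2b, and 8.49% of those of Clec10a occurred in Mgl2. For Clec4a2 the shares were 3.85% with Clec4a4 and 2.30% with Clec4b1, and for Fcgr2b 2.92% with Fcgr3. The other 6 genes shared none with any gene of these clusters that was compared. Levels of those 4 genes are uncertain by an unknown amount, because the sources used here do not say how reads common to several genes were divided. The share of words is not the size of that error.

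Promoters were taken from RefSeq (GRCm38.p6), which had an entry for 8 of the 10 genes. The 250 bases before the start site of 3 genes are shown because they represent the lectin cluster, the more distant lectin and the Fc receptors, and because in these 3 no base falls inside the annotated gene. They are Clec4a1 (chr6:122921598-122921847, plus strand), Clec7a (chr6:129472780-129473029, minus strand) and Fcgr1 (chr3:96293970-96294219, minus strand), written 5′ to 3′ along the gene. Capitals mark GAGGAA or its reverse complement, a core of sites bound by the myeloid factor PU.1, and in Fcgr1 also TTCNNNGAA, the pattern of STAT sites.
Clec4a1: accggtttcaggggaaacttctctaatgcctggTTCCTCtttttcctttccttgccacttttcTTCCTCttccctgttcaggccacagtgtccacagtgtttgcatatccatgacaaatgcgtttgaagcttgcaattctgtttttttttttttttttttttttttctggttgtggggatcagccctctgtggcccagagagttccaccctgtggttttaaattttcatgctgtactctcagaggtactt
Clec7a: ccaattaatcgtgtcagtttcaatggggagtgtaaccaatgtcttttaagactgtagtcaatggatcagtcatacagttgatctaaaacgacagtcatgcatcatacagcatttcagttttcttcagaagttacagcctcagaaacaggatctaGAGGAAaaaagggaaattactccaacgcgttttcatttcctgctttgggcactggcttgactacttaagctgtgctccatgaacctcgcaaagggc
Fcgr1: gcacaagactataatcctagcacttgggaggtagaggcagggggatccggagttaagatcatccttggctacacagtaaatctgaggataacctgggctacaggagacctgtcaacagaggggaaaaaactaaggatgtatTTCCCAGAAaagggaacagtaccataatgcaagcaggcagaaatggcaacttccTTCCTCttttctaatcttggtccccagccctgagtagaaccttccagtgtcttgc
Searched on both strands, GAGGAA was present before a start site of 5 of the 8 genes with an entry (Clec4a1, Clec4a3, Clec7a, Fcgr1 and Fcgr3), and in 23.3% of all 32851 promoter windows of that length. TTCNNNGAA was present in 2 of the 8 (Clec4a2 and Fcgr1) and in 7.02% of all windows, and GAAANNGAA, the repeat found in interferon response elements, in 0 of the 8 and in 7.13% of all windows. Genes with several start sites had more than 1 window, so the shares of genes and of windows are not the same measure. The windows of Clec4a1 and of the second start site of Clec4a3 aligned over 63 columns with 84.1% identity, a stretch that holds a GAGGAA match in each gene. A match of letters is a description and does not show that a factor binds there.

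The libraries differed in ways that cross the groups, which bears on every value below. Msra, the gene named by the genotype label, stood at 51.1, 59.1 and 56.3 TPM in WT and at 52.9, 40.0 and 26.9 TPM in Tumor, so its transcript was not lost where the label says knockout. The 10 adipocyte markers were present in every library, at a summed 13007 to 56080 TPM, lowest in Tumor replicate 3. The 7 B cell markers summed to 885, 714 and 4.71 TPM in WT and to 9.43, 1504 and 2210 TPM in Tumor, and the 5 lymph node stroma markers to 1994, 2243 and 12.4 TPM in WT and 29.4, 1566 and 3243 TPM in Tumor. Little lymphoid RNA was thus present in WT replicate 3 and in Tumor replicate 1, and much in the other 4 libraries. Skeletal muscle markers summed to 19.5, 2800 and 9.83 TPM in WT and to 1831, 578 and 2332 TPM in Tumor. In bulk tissue fewer cells of a type and less RNA per cell cannot be told apart. The library identifiers of WT and Tumor come from separate number ranges, so group and any batch that goes with it cannot be told apart.

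The adaptor and the lectin Clec10a had the highest levels among the 10 genes. Over the 6 libraries the mean level per length was 183 TPM for Fcer1g, 119 TPM for Clec10a, 70.9 TPM for Fcgr2b and 60.5 TPM for Fcgr3. Clec4n followed at 30.6 TPM, Clec4a3 at 22.1 TPM, Clec4a1 at 19.6 TPM, Clec4a2 at 19.4 TPM, Clec7a at 16.0 TPM and Fcgr1 at 11.1 TPM. The ranges of neighbours in this order overlapped for all 9 neighbouring pairs, and the upper gene of a pair was above the lower in 4 or 5 of the 6 libraries. The order is therefore only coarse: Clec4a1, Clec4a2 and Clec4a3 differed by less than the spread between libraries. Fcgr2b varied least, 1.99-fold between its lowest and highest library, and Clec4n most, 28.6-fold. In 9 of the 10 genes, all but Clec4n, the highest value was in Tumor replicate 1, where the 10 genes summed to 971 TPM against 403 to 549 TPM in the other 5 libraries.

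Every Tumor library was above every WT library for 6 of the 10 genes, Clec4a2, Clec4a3, Clec7a, Fcgr1, Fcgr2b and Fcer1g, as for 11.8% of all genes tested. The opposite order held for 0 of the 10 and for 3.24% of all genes. Because these values chose the set, nothing is read from that share. The count depends on the scaling. With median-ratio or upper-quartile factors in place of TPM as deposited it was 2 of 10, Clec4a3 and Fcgr1, as for 3.52% and 3.32% of all genes, and 0 of 10 were lower in every Tumor library, as for 6.87% and 6.46%. Clec4n, Clec10a, Fcgr3 and Clec4a1 overlapped between the groups in all 3 scalings.

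**Figure D1:**
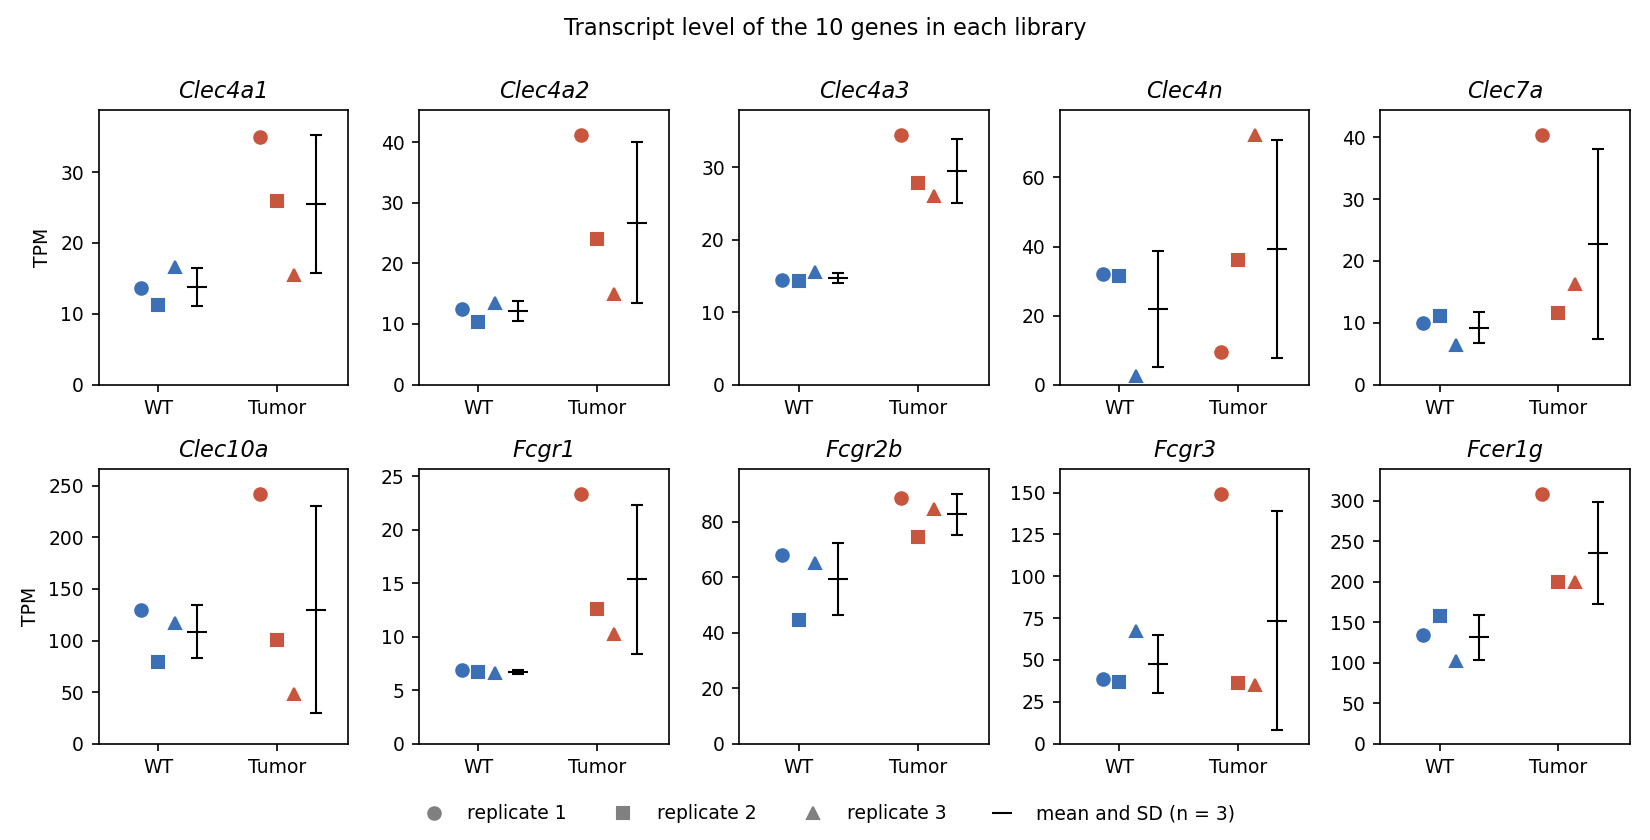
TPM (y axis, linear, from 0) of each of the 10 genes in the 3 libraries titled WT and the 3 titled Tumor. Symbols are single libraries, and the black bar beside them is the mean with its SD (n = 3). Clec4a3 and Fcgr1 lie in narrow ranges in WT and higher in Tumor, while Clec4a1, Clec4n, Clec10a and Fcgr3 overlap between the groups.

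Across the set, values were mostly higher in the Tumor libraries, without any gene passing a test. The difference in mean log2(TPM + 1), Tumor minus WT, had a median of 0.88 over the 10 genes, against 0.23 over all 14144 genes tested, and 9 of the 10 genes lay above that median of all genes. With median-ratio factors these medians were 0.66 and 0.029, and with upper-quartile factors 0.64 and 0.0097. The 9 genes with a positive difference were the same in all 3 scalings, and Clec10a was the exception. In the limma fit over all genes 0 of the 10 genes had an adjusted p below 0.05 (0.737 to 0.995), as had 0% of all genes in either direction. At an unadjusted p below 0.05 in limma there were 4 of the 10 genes, all higher in Tumor. Of all 14144 genes there were 771, of which 530 were higher and 241 lower. Without Tumor replicate 1 the median difference of the 10 genes was 0.59 and that of all genes 0.25, a distance of 0.34 in place of 0.65. In the 4 libraries rich in lymphoid RNA the values were 0.59, 0.25 and 0.34.

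**Figure D2:**
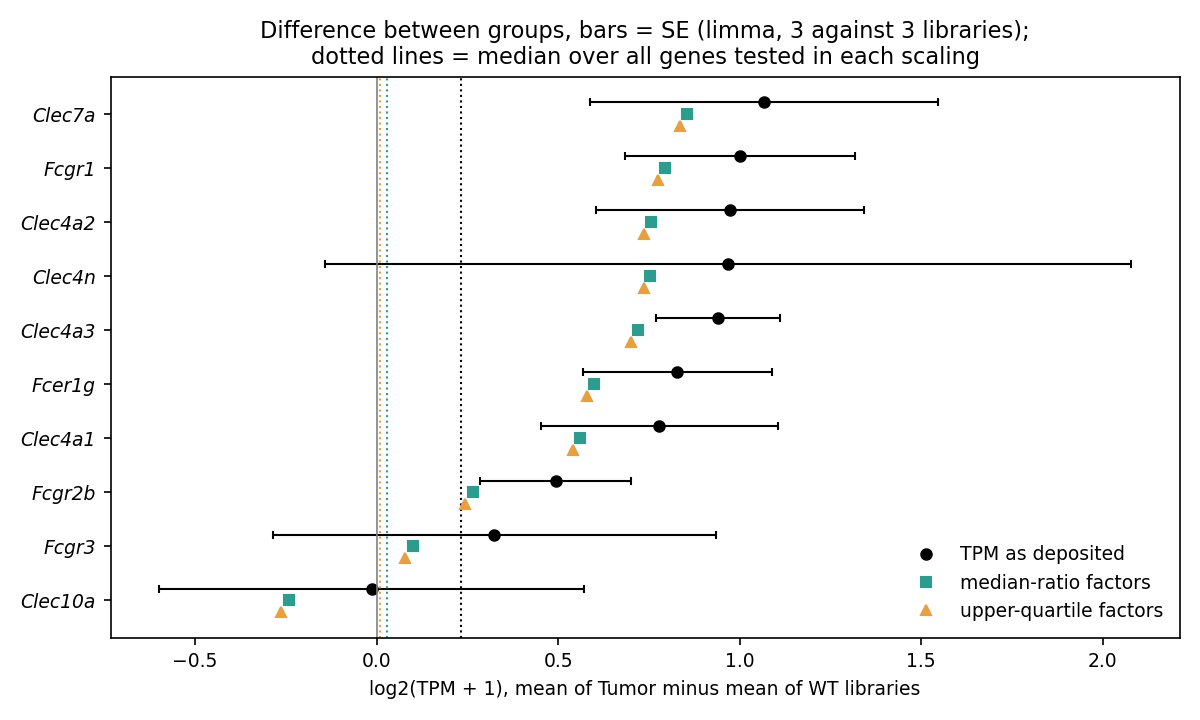
Difference between the group means in log2(TPM + 1) (x axis, Tumor minus WT) for each gene, with the SE from limma for TPM as deposited. Squares and triangles give the same after median-ratio and upper-quartile factors, and dotted lines the median over all genes in each scaling. For 9 genes the points lie right of 0 in all 3 scalings, and for Clec10a left of it.

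The Clec4a genes encode receptors of the DCIR group. Clec4a2 is the mouse counterpart of the inhibitory receptor DCIR, which carries an ITIM, and Clec4a1 and Clec4a3 are close relatives in the same cluster. Clec4a3 stood at 14.4, 14.3 and 15.6 TPM in WT and at 34.4, 27.8 and 26.1 TPM in Tumor. All 3 Tumor libraries were above all 3 WT libraries, and the WT libraries lay close together. Its means were 14.8 ± 0.697 and 29.4 ± 4.40 TPM (SD, n = 3), 1.99-fold higher in Tumor, and its log2 difference was 0.94 with an SE of 0.17 (limma adjusted p = 0.737). Clec4a2 stood at 12.5, 10.4 and 13.5 TPM in WT and at 41.2, 24.0 and 15.0 TPM in Tumor. The groups did not overlap, but Tumor replicate 3 was near the WT libraries, and the log2 difference was 0.97 (SE 0.37), or 0.61 without Tumor replicate 1. Clec4a1 stood at 13.6, 11.3 and 16.6 TPM in WT and at 35.0, 26.0 and 15.4 TPM in Tumor. Here Tumor replicate 3 was below WT replicate 3, so the groups overlapped, with a log2 difference of 0.78 (SE 0.33). The levels of Clec4a1 and Clec4a2 kept a ratio of 0.849 to 1.23 in the 6 libraries, and their Pearson correlation over the 6 libraries was 0.98 on the log2(TPM + 1) scale. That is a description of 6 points that share the same libraries and TPM totals.

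Clec7a encodes Dectin-1, the receptor for fungal beta-glucan, which signals through Syk by a tyrosine motif in its own tail. It stood at 9.99, 11.1 and 6.35 TPM in WT and at 40.3, 11.6 and 16.3 TPM in Tumor. Tumor replicate 1 was far above all others, and Tumor replicate 2 was barely above WT replicate 2. The log2 difference was 1.07 (SE 0.48), and without Tumor replicate 1 it was 0.57.

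Clec4n encodes Dectin-2, a receptor for fungal mannans that signals through Fcer1g. It stood at 32.0, 31.3 and 2.53 TPM in WT and at 9.37, 36.2 and 72.2 TPM in Tumor. The low libraries were WT replicate 3 and Tumor replicate 1, those with little lymphoid RNA, and the groups overlapped. The log2 difference of 0.97 (SE 1.11) changed to -0.10 when WT replicate 3 was left out and to 1.75 when Tumor replicate 1 was. Relative to Clec4a2 of the same cluster, Clec4n stood at ratios of 2.56, 3.02 and 0.187 in WT and of 0.228, 1.51 and 4.82 in Tumor. In both lymphoid-poor libraries Clec4n was thus the lower of the pair. The Pearson correlation of Clec4n over the 6 libraries was 0.99 with the mean of the dendritic cell markers. It was 0.98 with the monocyte and natural killer cell markers and 0.95 with the B cell, T cell and lymph node stroma markers. With the macrophage markers it was 0.55. Apart from the macrophage list, these lists follow the same division of the libraries. The part of any of these cells in the level of Clec4n was not tested.

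Clec10a encodes MGL1 (CD301a), a galactose-type lectin of alternatively activated macrophages and dendritic cells. It stood at 129, 79.5 and 117 TPM in WT and at 242, 101 and 47.8 TPM in Tumor. The Tumor group held both the highest and the lowest library, and the log2 difference was -0.013 (SE 0.59). Mgl2, its neighbour and close copy, named here after its values were seen, stood at 38.7, 35.3 and 101 TPM in WT and at 64.7, 39.2 and 14.1 TPM in Tumor. Clec10a was above Mgl2 in all 6 libraries, at ratios of 1.16 to 3.74. Both were lowest in Tumor replicate 3, the library with the least adipocyte RNA.

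**Figure D3:**
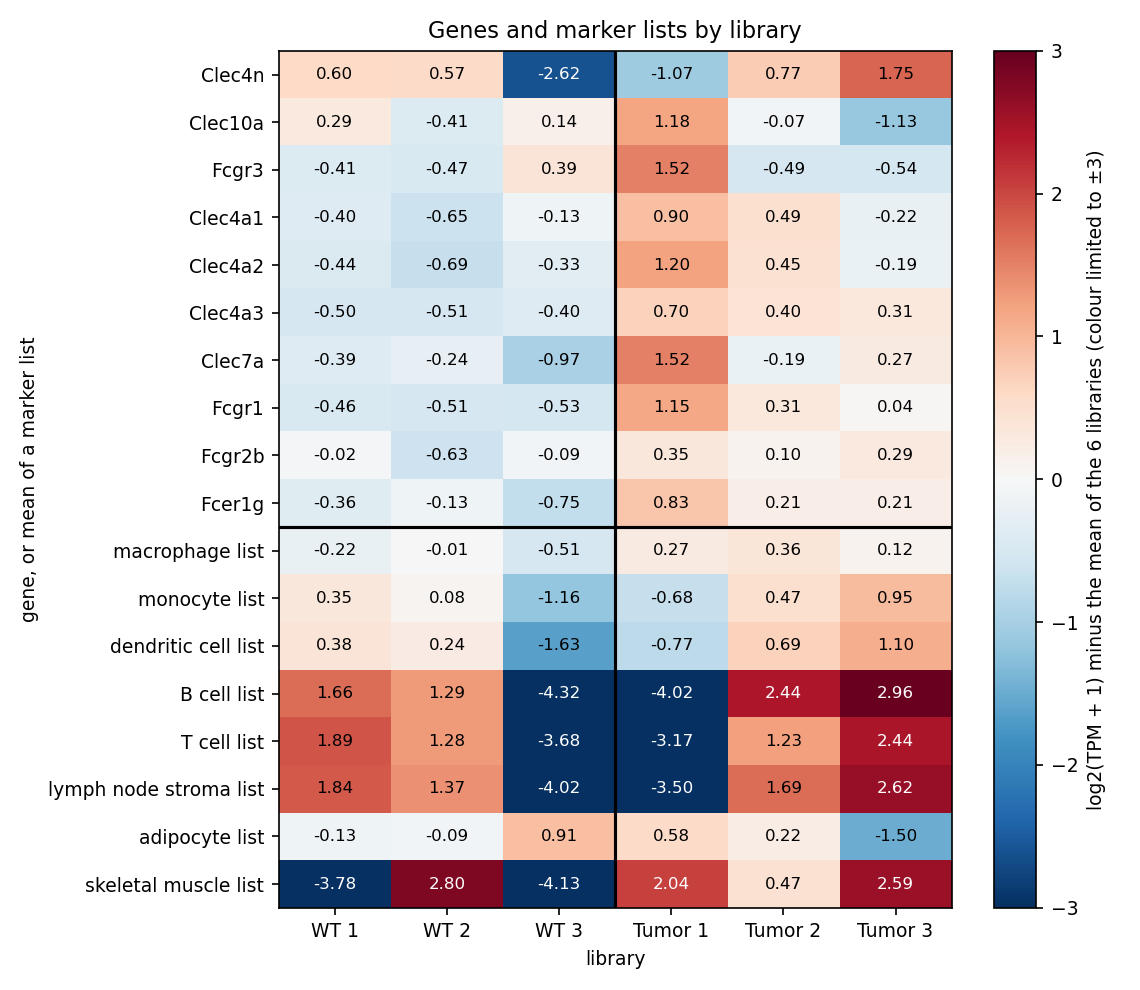
Heat map of log2(TPM + 1) minus the mean over the 6 libraries, for the 10 genes (above the line) and for the mean of 8 marker lists (below it), with libraries as columns. Clec4n is low in WT replicate 3 and Tumor replicate 1 (-2.62 and -1.07), as are the B cell, T cell and lymph node stroma lists, whereas Fcgr3 is highest in those libraries (0.39 and 1.52).

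Among the Fc gamma receptors of the set, Fcgr1 and Fcgr2b did not overlap between the groups in TPM as deposited, and Fcgr3 did. Fcgr1 encodes CD64, the high-affinity receptor for IgG, and is known as an interferon gamma target. It stood at 6.93, 6.70 and 6.57 TPM in WT and at 23.3, 12.6 and 10.2 TPM in Tumor. All 3 Tumor libraries were above the narrow WT range. Means were 6.73 ± 0.182 and 15.4 ± 6.98 TPM (SD, n = 3), 2.28-fold higher in Tumor, and its log2 difference was 1.00 with an SE of 0.32 (limma adjusted p = 0.737). Fcgr3 encodes an activating low-affinity receptor of macrophages, natural killer cells and mast cells. It stood at 38.4, 36.9 and 67.5 TPM in WT and at 149, 36.1 and 35.1 TPM in Tumor. The 2 lymphoid-poor libraries were the highest, the other 4 lay within 35.1 to 38.4 TPM, and the groups overlapped. The log2 difference of 0.32 (SE 0.61) was -0.35 without Tumor replicate 1. Fcgr2b encodes the inhibitory receptor, with an ITIM, of B cells and myeloid cells. It stood at 68.1, 44.4 and 65.2 TPM in WT and at 88.5, 74.5 and 84.6 TPM in Tumor. The groups did not overlap, and the gap between WT replicate 1 and Tumor replicate 2 was small. The log2 difference was 0.49 (SE 0.21), and 0.27 and 0.24 with median-ratio and upper-quartile factors, where the groups overlapped. Without WT replicate 2 it was 0.30. B cells also express Fcgr2b. Its correlation over the 6 libraries with the B cell markers was -0.14. In the libraries with 4.71 and 9.43 TPM of summed B cell markers it stood at 65.2 and 88.5 TPM. The part of B cells in its level was not tested.

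The balance of inhibitory and activating receptors varied more between libraries than between groups. The ratio of Fcgr2b to Fcgr3, which does not depend on the scaling of TPM, was 1.77, 1.20 and 0.965 in WT and 0.594, 2.06 and 2.41 in Tumor. The Tumor libraries were both below and above all WT libraries. The mean log2 ratio was 0.35 ± 0.44 in WT and 0.52 ± 1.11 in Tumor (SD, n = 3), a difference of 0.17 that was smaller than either SD. As a share of the summed TPM of Fcgr1, Fcgr2b, Fcgr3 and Fcgr4, Fcgr2b took 45.6% to 58.1% in WT and 32.0% to 63.1% in Tumor. Fcgr1 took 5.91%, 7.34% and 4.60% in WT and 8.44%, 9.42% and 7.64% in Tumor. The share of each Tumor library was above that of each WT library, with a small gap between 7.34% and 7.64%. Fcgr1 was chosen with its levels known, and this measure has no counterpart over all genes, so nothing is read from that order.

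**Figure D4:**
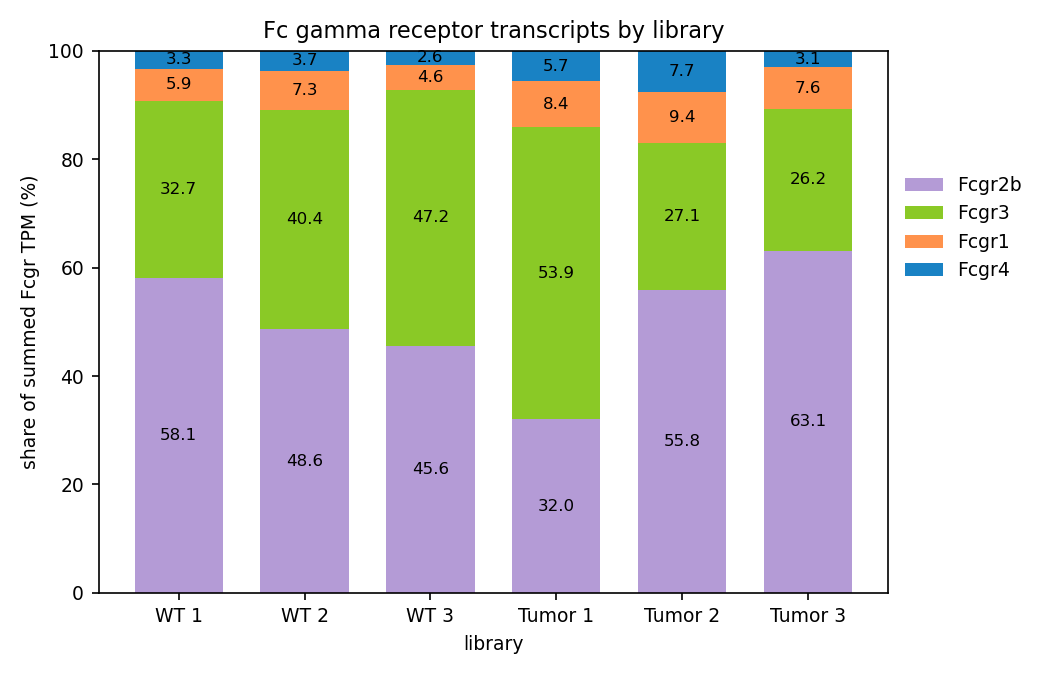
Share (%) of the summed TPM of the Fc gamma receptor genes taken by Fcgr2b, Fcgr3, Fcgr1 and Fcgr4 in each library, as stacked bars from 0 to 100. Fcgr3 takes the largest share in WT replicate 3 (47.2%) and Tumor replicate 1 (53.9%), and Fcgr2b in the other 4 libraries.

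Fcer1g, the ITAM adaptor shared by Fcgr1, Fcgr3 and Clec4n, stood at 134, 157 and 102 TPM in WT and at 308, 199 and 199 TPM in Tumor. All Tumor libraries were above all WT libraries. Means were 131 ± 27.6 and 236 ± 62.7 TPM (SD, n = 3), 1.79-fold higher in Tumor, and its log2 difference was 0.83 with an SE of 0.26 (limma adjusted p = 0.737). Fcer1g is also expressed by mast cells and natural killer cells. Of the 7 mast cell markers 5 had a negative difference, as had 3288 of all 14144 genes. All 6 natural killer cell markers had a positive one, as had 10856 of all genes. These 6 markers summed to 13.5 to 101 TPM in WT and 31.8 to 171 TPM in Tumor. Within each group the sum was lowest in the lymphoid-poor library. The part of those cells in the level of Fcer1g was not tested.

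Macrophage markers were examined beside the set. Of the 13 macrophage markers 12 had a positive difference, with a median of 0.35, as had 10856 of all 14144 genes, with a median of 0.23. In limma 0 of the 13 passed, 2 had an unadjusted p below 0.05, and 3 separated the groups (Cd68, Csf1r and Lyz2), against 11.8% of all genes. By library their sum was 2306, 2261 and 1877 TPM in WT and 4424, 2737 and 3436 TPM in Tumor. No marker of this list was at 0 in any library. The marker with the highest mean, Lyz2, a lysozyme of macrophages and other myeloid cells, stood at 1234, 978 and 733 TPM in WT and at 2215, 1401 and 2167 TPM in Tumor. Set against the mean log2(TPM + 1) of the macrophage markers within each library, 0 of the 10 genes separated the groups, while 0.226% of all genes were higher and 13.2% lower in every Tumor library. That count depends on the markers. Marco and Timd4 of this list, named after their values were seen, follow the lymphoid division: Marco stood at 42.6, 156 and 0.634 TPM in WT and at 1.05, 113 and 141 TPM in Tumor, and Timd4 at 38.1, 79.0 and 3.95 TPM against 4.21, 99.1 and 94.8 TPM. Without these 2 markers, an alternative chosen after seeing the data, Clec4a1, Clec4a2 and Fcgr1 (3 of the 10 genes) were higher in every Tumor library. The same held for 0.156% of all genes, while 0 of the 10 and 15.9% of all genes were lower. Both the genes and this alternative were chosen with their values known, so nothing is read from that count. Relative to all 13 markers the mean of the 10 genes was -1.10 ± 0.21 in WT and -0.86 ± 0.39 in Tumor (SD, n = 3). The difference was 0.57 for Clec7a, 0.51 for Fcgr1, 0.48 for Clec4a2, 0.47 for Clec4n and 0.44 for Clec4a3. It was 0.33 for Fcer1g, 0.28 for Clec4a1, -0.0024 for Fcgr2b, -0.17 for Fcgr3 and -0.51 for Clec10a. With the macrophage markers as a covariate in limma the median difference of the 10 genes was 0.84, against 0.22 over all genes, and 8 of the 10 were positive. The mean of these markers was itself higher in every Tumor library, at 6.16 to 6.40 against 5.53 to 6.04 in WT. That fit therefore separates the markers poorly from group, and nothing is read from it.

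Other genes of these families were listed by function. Of the other myeloid C-type lectins 21 of 24 were tested, 0 passed in limma and 1 had an unadjusted p below 0.05. Their median difference was 0.10, below that of all genes, and 11 were positive and 10 negative. The median turned to -0.11 and -0.13 with median-ratio and upper-quartile factors. Clec12a, an inhibitory receptor for uric acid crystals, stood at 9.37, 9.61 and 5.74 TPM in WT and at 31.2, 17.9 and 15.7 TPM in Tumor, and its log2 difference was 1.26 with an SE of 0.33 (limma adjusted p = 0.737). Clec4d, which pairs with Mincle in the recognition of mycobacterial glycolipid, stood at 0.898, 1.32 and 1.19 TPM in WT and at 31.2, 1.87 and 1.66 TPM in Tumor, so that Tumor replicate 1 was far above the other 5 libraries. Clec4b1 stood at 5.34 to 7.45 TPM in WT and at 23.1, 9.59 and 4.08 TPM in Tumor. Clec9a, a receptor of cross-presenting dendritic cells, stood at 4.06, 6.12 and 2.04 TPM against 2.55, 8.48 and 10.4 TPM and was low in both lymphoid-poor libraries.

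Of the other Fc receptors 10 of 14 were tested, and 0 passed in limma, with 0 at an unadjusted p below 0.05. Their median difference of 0.87 was -0.10 without WT replicate 3. Fcgr4, an activating receptor for some IgG classes that also uses Fcer1g, stood at 3.85, 3.37 and 3.71 TPM in WT and at 15.6, 10.3 and 4.09 TPM in Tumor, without overlap, with a log2 difference of 1.09 (SE 0.45) that was 0.71 without Tumor replicate 1. Trim21, a cytosolic receptor for antibody, stood at 18.0, 12.5 and 9.72 TPM in WT and at 15.9, 27.6 and 24.9 TPM in Tumor. The B cell genes Fcrl1 and Fcrla stood at 0.659 and 0.324 TPM in WT replicate 3, at 1.84 and 1.24 TPM in Tumor replicate 1 and at 25.4 TPM or more in the other 4 libraries.

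Genes of ITAM and ITIM signalling, 22 of 22 tested, all had a positive difference, as had 10856 of all 14144 genes. Their median was 0.92, which changed to 0.34 when WT replicate 3 was left out, to 1.43 when Tumor replicate 1 was and to 0.59 when Tumor replicate 3 was. Of these 0 passed in limma, 2 had an unadjusted p below 0.05, and 3 separated the groups, against 11.8% of all genes in that direction. With the macrophage covariate, itself higher in every Tumor library, the median was -0.091, and nothing is read from that. Tyrobp, an ITAM adaptor related to Fcer1g, stood at 192, 193 and 120 TPM in WT and at 434, 265 and 332 TPM in Tumor, 2.04-fold higher (log2 difference 1.03, SE 0.29, limma adjusted p = 0.737). Prkcd, a kinase between Syk and Card9, stood at 101, 75.0 and 47.7 TPM in WT and at 104, 119 and 179 TPM in Tumor. Syk itself stood at 40.8, 36.3 and 15.6 TPM against 34.1, 67.0 and 92.8 TPM, and Pik3ap1, an adaptor for phosphoinositide 3-kinase, at 20.9, 15.8 and 5.26 TPM against 15.9, 42.7 and 42.6 TPM, both with overlap between the groups.

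Other paired myeloid receptors, activating and inhibitory receptors of the same cells, were positive in 15 of 15 genes tested of 19, with a median of 0.83. None passed in limma, 7 had an unadjusted p below 0.05, all higher in Tumor, and 7 separated the groups, all of them higher in Tumor, against 11.8% of all genes. Over all 14144 genes 10856 were positive and 530 had an unadjusted p below 0.05 with a higher value in Tumor. Pirb, an inhibitory receptor that binds MHC class I, stood at 31.9, 26.1 and 29.1 TPM in WT and at 60.3, 42.8 and 55.4 TPM in Tumor, and its log2 difference was 0.83 with an SE of 0.19 (limma adjusted p = 0.737). Sirpa, the inhibitory receptor for CD47, stood at 56.3, 46.6 and 47.6 TPM in WT and at 102, 72.7 and 77.7 TPM in Tumor. Cd300ld stood at 6.69, 8.04 and 6.17 TPM against 21.0, 12.6 and 12.7 TPM, and Cd300c2 at 11.3, 15.0 and 6.40 TPM against 38.4, 17.6 and 22.2 TPM.

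The genes most like the set were sought by the Pearson correlation of log2(TPM + 1) with the mean of the 10 genes, over the 6 libraries and among 10921 other genes with a mean of at least 5 TPM. The highest 6 were Cln6 (0.996), Ripk1 (0.993), Gusb (0.985), Clec12a (0.978), Cd300a (0.978) and Akip1 (0.978). These values rest on 6 libraries that share their TPM totals and are a description, with no test. Gusb, the lysosomal enzyme beta-glucuronidase, stood at 50.8, 42.7 and 43.5 TPM in WT and at 85.0, 57.6 and 55.9 TPM in Tumor. Cd300a, an inhibitory receptor with ITIMs, stood at 4.99, 5.66 and 3.01 TPM in WT and at 23.9, 8.59 and 7.61 TPM in Tumor. Both had Tumor replicate 1 as the highest library and all Tumor libraries above all WT libraries, an order of the groups seen in 11.8% of all genes. The mean of the 10 genes had the same pattern, so it came with the choice by correlation and nothing is read from it.

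Among the 10 genes, Fcgr1 had Pearson correlations of 0.97 with Clec4a2, 0.94 with Clec4a3, 0.92 with Fcer1g and with Clec4a1, and 0.90 with Clec7a over the 6 libraries. Those genes were less close to one another in some pairs, at 0.67 for Clec4a1 with Clec7a and 0.71 for Clec4a1 with Fcer1g. Clec10a and Fcgr3 correlated at 0.81 with each other. Clec4n stood apart, at -0.69 with Fcgr3 and -0.62 with Clec10a, and its highest value was 0.30, with Fcer1g. These 45 pairs come from 6 libraries and share their TPM totals, and no test was made on them.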

How the data were processed

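Poly-A RNA of 6 libraries, 3 per group, was sequenced, and per the labels' protocols the RNA integrity number was above 7. The authors deposited 1 table, named as raw counts, whose values are TPM: they are not whole and each column sums to 1000000. Per the submitters' processing notes GRCm38.p6 was the genome build, and DESeq2 is listed without a role or version. Aligner, quantification tool and annotation were not given in the sources used here. TPM keep no depth, so the number of reads and a counting error are unknown.

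Groups came from the sample titles. limma 3.58.1 in R 4.3.3 was fitted to log2(TPM + 1) with group alone, a mean-variance trend and robust moderation, for the 14144 genes that reached 1 TPM in 3 or more libraries. Benjamini-Hochberg adjustment of p-values ran over all of them, with a threshold of 0.05. Differences on the log2(TPM + 1) scale understate changes of low genes. With 3 libraries a group the smallest exact permutation p is 0.1, and that test was not used. The fit was tested on simulated data. Scaling alternatives divided TPM by median-ratio or upper-quartile factors, and leave-one-out fits, covariates, filters and pseudocounts are given at the end. Promoters came from RefSeq and transcripts and coordinates from GENCODE M21. Figures used matplotlib 3.10.9 under Python 3.11.15.

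The genes and lists were chosen with earlier results of these data known. Beside the 10 genes and Msra, up to 4 genes of each family list with the smallest p and a mean of at least 5 TPM, the 6 genes most correlated with the mean of the set, and the most abundant marker of a list were named. Family lists were written by function. The replicate numbers of the groups were checked for pairing and were not used as such.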

Additional observations from a re-analysis of the deposited data

How the results depend on the processing

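No gene passed in limma under 17 of 18 alternatives. With the B cell markers as a covariate 1 did, Gm11594 (mean 7.15 TPM in WT and 0 in Tumor), named after its value was seen. With each library left out, the median difference of the 10 genes was lowest at 0.59 without Tumor replicate 1 and highest at 0.98. It was 0.59 in the 4 libraries rich in lymphoid transcripts and 0.64 with upper-quartile factors. The genes whose groups do not overlap numbered 6 to 7 with each library left out, when 14.2% to 34.7% of all genes did the same. They numbered 8 in the 4 lymphoid-rich libraries, against 41.6% of all genes, and 2 with median-ratio and 2 with upper-quartile factors. Fcgr3 alone (1 gene) was lower in every Tumor library, in the fit lacking Tumor replicate 1 and in the 4 lymphoid-rich libraries. The same held for 6.75% and 7.85% of all genes, so nothing is read from that count. With each library left out the difference in the log2 ratio of Fcgr2b to Fcgr3 ran from -0.20 to 0.81. It was below 0 in the fits lacking WT replicate 3 (-0.026), Tumor replicate 2 (-0.088) or Tumor replicate 3. Relative to the macrophage markers 0 of the 10 genes separated the groups, and 3 did without Marco and Timd4, an alternative chosen after seeing the data. In that alternative 0.156% of all genes were higher and 15.9% lower in every Tumor library, and nothing is read from the count. The cause of these shifts was not tested.

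Directions of Clec4a1, Clec4a2, Clec4a3, Clec7a, Fcgr1, Fcgr2b and Fcer1g held under all 18 alternatives. With each library left out, differences ran from -0.61 to 0.55 for Clec10a, from -0.35 to 0.67 for Fcgr3, from -0.10 to 1.75 for Clec4n, from -0.29 to 2.85 for Fcrl1 and from -0.65 to 2.83 for Fcrla. The list medians ran from -0.10 to 1.28 for other Fc receptors and from -0.018 to 0.34 for other myeloid lectins. Among the fits with 1 library left out, Clec10a was above 0 in all but those lacking WT replicate 2 or Tumor replicate 1. With the B cell covariate it was 0.14. In 13 of the 18 alternatives its difference stayed below 0, as in the main fit. The other negative ends belong to the fit lacking WT replicate 3, except Fcgr3 (Tumor replicate 1) and the lectins (Tumor replicate 2). Fcgr3 was -0.078 in the 4 lymphoid-rich libraries. With the macrophage covariate Clec4n was -1.17, Clec9a -0.17, Fcrl1 -1.62 and Fcrla -2.60. The medians of other Fc receptors and of ITAM and ITIM signalling were then -0.19 and -0.091. That covariate was itself higher in every Tumor library, so the fit separates it poorly from group. The median of other myeloid lectins was -0.11 with median-ratio and -0.13 with upper-quartile factors.

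The replicate numbers are shared by the groups, and deviations of same-numbered libraries correlated at -0.76, 0.20 and -0.84. The highest correlation, 0.85, was that of the lymphoid-poor libraries WT replicate 3 and Tumor replicate 1. Such differences in content could hide a pairing, so the check cannot decide whether the numbers mark pairs. With the replicate block 0 genes passed and the median of the 10 genes was 0.88.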
